A study of Mus musculus with 7 samples.

Results

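Cytosolic ribosomal protein genes were followed in lineage-negative cells of fetal mouse liver, with Brd9 targeted in blood cells. BRD9 is the bromodomain protein of a BAF-type chromatin remodeller. The genes were chosen by symbol: Rpl or Rps followed by a number and an optional a, x or y, together with Rpsa, Rplp0, Rplp1 and Rplp2. Rows of named pseudogenes were left out, and a summed count of at least 700 over the 7 libraries was required. All 76 matching symbols of the 35976 in the count table passed, 46 of the large subunit and 30 of the small subunit. The lowest were Rpl39 with a summed count of 43273 and Rps28 with 44814, and no matching symbol lay under the limit. There were 4 knockout libraries, CD45.2(+) Vav1-iCre Brd9fl/fl, and 3 control libraries, CD45.2(+) Brd9fl/fl. All came from C57BL/6 fetal liver at embryonic day 14.5, and lineage-negative cells were taken with magnetic beads. The Vav1-iCre transgene deletes floxed alleles in blood cells, and both groups carry the floxed Brd9 alleles while the control genotype names no Cre. Whether the libraries of a group came from separate embryos is not stated, so p-values measure the spread between these libraries.

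Ribosomal proteins coat the ribosomal RNA of the small subunit, which reads the mRNA, and of the large subunit, which joins amino acids and forms the exit tunnel. Each is made in amounts matched to the others, and their mRNAs carry a run of pyrimidines at the 5′ end (the TOP motif) through which mTORC1 and LARP1 control translation. Red cell formation is sensitive to their dose: in people, loss of 1 copy of RPS19, RPL5, RPL11 or RPS26 gives Diamond-Blackfan anaemia, and RPS14 is lost in the 5q- syndrome.

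A pyrimidine run near the annotated start is shown for Rps23, the gene that departed most from the others. It is also shown for Rpl41 and Rps2, which had the highest levels per length. Rpl5 and Rpl11, whose proteins bind the 5S ribosomal RNA, are shown too, as are the anaemia gene Rps26 and Rpl27a, which had a long run. Each stretch of 30 bases is RefSeq sequence of GRCm38.p6, written 5′ to 3′ on the gene's own strand. Capitals mark the longest run that began with C and went on with C or T, searched within 50 bases either side of the annotated start. Such a run need not lie at the 5′ end of the mRNA, so it is not by itself a TOP motif.
Rps23, chr13:90923142-90923171, plus strand: tgggtccttcctgcaCCTCCTCTCTCTTTC
Rpl41, chr10:128549119-128549148, minus strand: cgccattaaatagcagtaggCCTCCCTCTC
Rps2, chr17:24720083-24720112, plus strand: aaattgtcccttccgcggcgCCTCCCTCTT
Rpl5, chr5:107900498-107900527, plus strand: cctacagccaCTCTTTCTCacgtcgcttgc
Rpl11, chr4:136053360-136053389, minus strand: ggccggaagtCTCCCTCTCTCTTCCTgttc
Rps26, chr10:128626483-128626512, minus strand: gccgccggatCCTCTTTCgagtcttggctc
Rpl27a, chr7:109519181-109519210, plus strand: acttcgtgagCTCCTCCCTTTTCCCTTTCT
The run began 35 bases after the annotated start in Rps23 and 40 bases after it in Rpl41 and Rps2, and in all 3 it reached the end of the search window. It began 14 bases after the start in Rpl11 and 4 bases after it in Rps26. In Rpl27a it began before the start, and in Rpl5 its 9 bases began at -20, so all of them lay before the start. The start meant here is that of the RefSeq promoter sequences. In GENCODE, the annotation used for transcript lengths, the genes begin further upstream, Rpl27a at chr7:109519147 and Rpl5 at chr5:107900502. Both runs lie within the gene's bounds there. RefSeq promoters of 300 bases matched 56 of the 76 genes by symbol. A run of a C and 7 or more further pyrimidines occurred in 48 of these 56 (85.7%), against 32.1% of 10060 other tested coding genes. The median longest run was 10.5 bases in the ribosomal protein genes and 6 bases in the other genes. The letters CCGGAA, a core bound by ETS factors, occurred on either strand in 31 of the 56 promoters (55.4%), against 30.2% of the others. AAGATGG, a core of the YY1 motif, occurred in 9 (16.1%), against 8.29%, and TATAAA in 6 (10.7%), against 8.88%. Each motif was searched separately, so matches of different motifs could overlap.

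RNA was read as counts per gene symbol, with totals of 18748885 to 21861876 in the knockout libraries and 21831430 to 23571878 in the control libraries. Brd9 had 8.57, 11.9, 13.2 and 12.2 CPM (counts scaled to a fixed library size) in knockout replicates 1 to 4, against 30.6, 32.2 and 36.5 CPM in control replicates 1 to 3. These counts cover the whole gene, not the deleted exons alone. All 4 knockout libraries lay below all 3 controls, at 34.7% of the control mean (log2 fold change -1.53, SE 0.15, adjusted p = 0.0037 by edgeR's quasi-likelihood test with Benjamini-Hochberg adjustment). Markers of stem and progenitor cells, which the lineage-negative fraction should hold, summed to 807 to 1089 CPM in knockout and 1021 to 1401 CPM in control libraries, and none of the 12 was at 0. The same held for 12 erythroid markers, at 4452 to 6251 CPM in knockout and 2594 to 4540 CPM in control libraries. It also held for 11 hepatocyte markers, at 13814 to 24416 CPM in knockout and 10802 to 19070 CPM in control libraries. Hepatocyte markers thus exceeded stem and progenitor markers in every library, so the RNA was not of blood progenitors alone. The part of hepatocytes in the remaining Brd9 counts and in the family's counts was not tested. Neutrophil markers (10 genes) summed to 1601 to 3689 CPM in knockout libraries, below the 4781 to 8475 CPM of the controls, and 10 macrophage markers to 26.7 to 76.3 CPM, below 114 to 195 CPM. Fewer cells of a type and less RNA per cell cannot be told apart in these bulk libraries.

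The 76 genes spanned a 15.2-fold range of mean level per kilobase of transcript in control libraries. The low end of that range was Rps20, whose transcript model of 3706 bases is the longest of the family. Rpl21, the next lowest, had 316 CPM per kb in controls. Per kilobase of transcript the median was 1257 CPM in knockout and 1183 CPM in control libraries, and the middle 50% of the genes lay between 887 and 1538 CPM per kb in controls. Rpl41, the smallest ribosomal protein, was highest, at 3537 ± 694 CPM per kb in knockout (SD, n = 4) and 3175 ± 334 in control libraries (SD, n = 3). Rps2, which lines the mRNA entry site, followed with 3028 ± 406 CPM per kb in knockout and 2794 ± 227 in control libraries. Rplp1 and Rplp0 form part of the stalk that recruits translation factors. Rplp1 stood at 2817 ± 464 CPM per kb in knockout and 2632 ± 245 in control libraries. Rplp0 had 2100 ± 342 and Rps18, of the head of the small subunit, 2053 ± 326 CPM per kb in knockout libraries, against 1957 ± 131 and 1907 ± 190 in controls. Rplp0 and Rps18 lay within each other's SD, as did Rps2 and Rplp1. The mean of Rps2 was above that of Rplp1, and that of Rplp0 above that of Rps18, in both knockout and control libraries. The genes of a pair were measured in the same libraries, and the SDs include shifts that both genes share. Overlap of the SDs therefore cannot decide the order within a pair.

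At the low end stood Rps20, with 215 ± 28.8 CPM per kb in knockout and 209 ± 20.7 in control libraries. Its only coding model in the annotation is 3706 bases long, the longest of the family, where the median is 705 bases, so its level per length rests on that long model. Rpl21 had 364 ± 70.1 CPM per kb in knockout and 316 ± 19.6 in control libraries. Rpl39, which lines the exit tunnel, had 488 ± 95.7 in knockout and 455 ± 38.4 in control libraries. Rpl37 had 571 ± 104 in knockout and 553 ± 50.1 in control libraries. Rps16 had 670 ± 108 in knockout and 666 ± 70.9 in control libraries. The models used for Rpl21, Rpl37 and Rps16, of 899, 835 and 1109 bases, are also longer than the median of 705 bases. Their places at the low end therefore rest in part on those lengths. The ranking of the 76 genes was nearly the same in both groups (Spearman rho 0.993 across genes, which are not independent replicates and share the libraries).

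**Figure D1:**
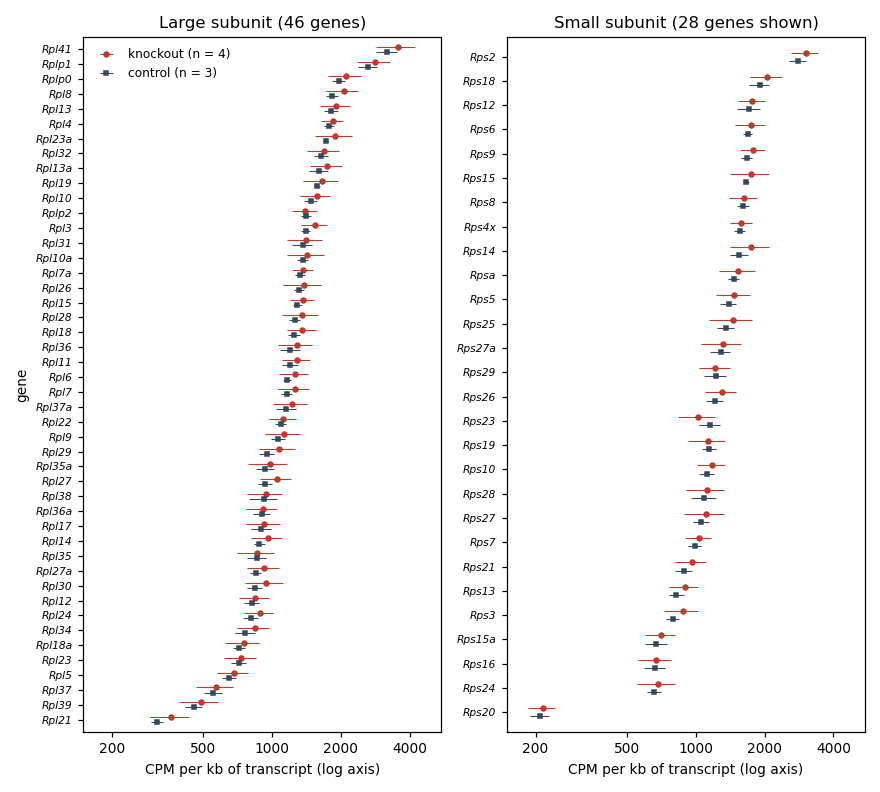
Level of 74 of the 76 ribosomal protein genes in CPM per kb of transcript on a log axis, with the knockout mean (red circles, n = 4) above the control mean (blue squares, n = 3) and SD bars. The bars of the groups overlap, Rpl41 is highest at 3537 CPM per kb in knockout libraries and Rps20 lowest at 215.

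No ribosomal protein gene passed the test between knockout and control libraries. In the edgeR test over 14679 genes, 0 of the 76 passed an adjusted p of 0.05, where 82 of all genes (0.559%, 2 higher and 80 lower) did. At an unadjusted p under 0.05, 0 of the 76 stood out, against 1593 of all genes (10.9%). In 0 of the 76 did the CPM of all knockout libraries lie above or below all controls, against 11.2% of all genes. DESeq2 also called 0 of the 76, against 2.68% of the genes it gave an adjusted p. The authors' deposited table likewise held 0 of the 76 at an adjusted p under 0.05, against 2.19% of its genes, with a smallest adjusted p of 0.782. The smallest adjusted p by edgeR was 0.646, for Rpl21, and the standard errors of the log2 fold changes ran between 0.10 and 0.15. Changes of about that size were therefore not resolved for any of these genes. Larger changes could also miss the cut-off. Ltv1, outside the family, had a log2 fold change of 0.27 (SE 0.09) and an adjusted p of 0.284 by edgeR.

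The fold changes were small and alike. They ran between -0.17 (Rps23) and 0.20 (Rpl21) on the log2 scale, and 74 of the 76 lay within 0.1 of the median. That median was 0.08, with 72 of 76 genes higher in knockout libraries, against 0.01 and 52.4% higher over all tested genes. The median was -0.03 without knockout replicate 3, with 25 of 76 higher, and 0.02 without control replicate 2, with 51 higher. It was also below 0, at -0.0029, when each library was scaled to its own ribosomal protein counts, a scaling that sets the family's total equal in every library.

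**Figure D2:**
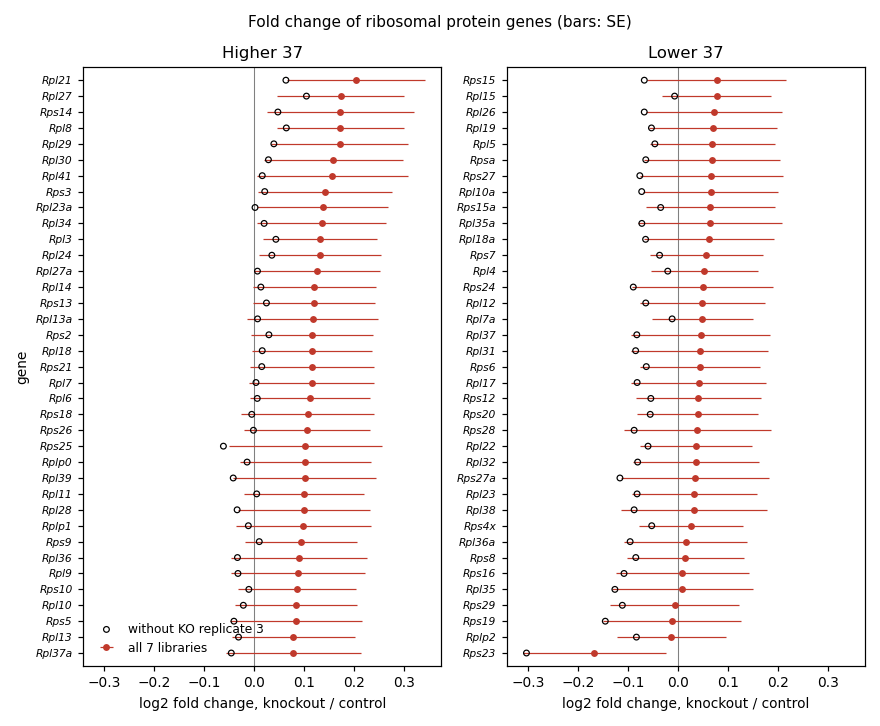
Log2 fold change, knockout over control, of 74 of the 76 genes with all 7 libraries (red circles, bars are the SE of the edgeR fit) and without knockout replicate 3 (open circles), in order of fold change. Most points lie above 0 with all libraries, fewer do without knockout replicate 3, and Rps23 is lowest at -0.17 and -0.30.

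The positive median went with a single library. The family took 7.46%, 7.30%, 9.27% and 6.81% of all counts in knockout replicates 1 to 4, against 7.56%, 6.91% and 7.59% in control replicates 1 to 3. Knockout replicate 3 stood alone above every control, and the other 3 knockouts lay within or just below the controls' range. Its share had a 95% Wilson interval of 9.26% to 9.28%, which covers counting error only. The mean share was 7.71 ± 1.08% in knockout (SD, n = 4) and 7.35 ± 0.38% in control libraries (SD, n = 3), a difference of 0.354 percentage points, smaller than the SD of the knockouts. Without knockout replicate 3 the difference was -0.17 percentage points. The small subunit genes took 3.03 ± 0.43% in knockout and 2.92 ± 0.16% in control libraries, and the large subunit genes 4.67 ± 0.65% and 4.43 ± 0.22%.

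Knockout replicate 3 was the highest library for all 76 genes, each above every control. Over all tested genes, 32.7% lay above every control in that library. Set against the mean log2 level of the controls, the median gene of the family was at 0.07, -0.02, 0.39 and -0.12 in knockout replicates 1 to 4 and at 0.06, -0.12 and 0.05 in control replicates 1 to 3. The lowest library was control replicate 2 for 40 genes and knockout replicate 4 for the other 36. The controls thus differed among themselves by about as much as knockout replicate 4 differed from their mean.

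**Figure D3:**
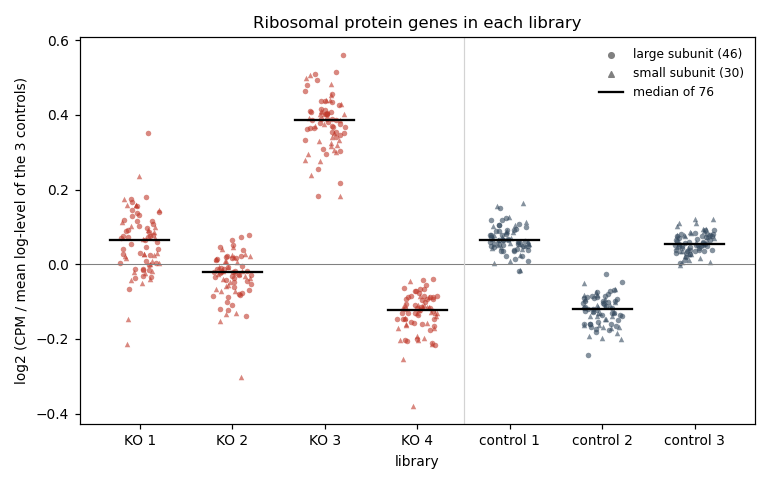
Log2 level of each ribosomal protein gene against the mean log2 level of the 3 controls, by library, with knockouts in red left of controls in blue, circles for the large and triangles for the small subunit, and a black line at the median. All 76 genes are at 0.18 or more in knockout replicate 3, and the other libraries have medians between -0.12 and 0.07.

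Within a library the genes kept close proportions. The median SD over the 7 libraries was 0.18 for log2 CPM and 0.04 for the log2 share of the summed ribosomal protein counts. The 489 other genes at or above the level of the lowest member had a median SD of 0.13 for log2 CPM. The median Pearson r between pairs of the 76 genes over the 7 libraries was 0.952, a description only, since all pairs share the same libraries and knockout replicate 3 lies apart.

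Short genes as a class were also high in knockout replicate 3. The median transcript was 705 bases long in the family and 2792 bases in other tested coding genes. In that library the median log2 level against the controls was 0.25 for 909 other coding genes under 1 kb and 0.15 for 2973 genes of 1 to 2 kb. It was 0.0013 for 5195 genes of 2 to 4 kb and -0.23 for 3594 genes over 4 kb. The 39 other genes under 1 kb that were at least as high as the lowest ribosomal protein gene had 0.21, against 0.39 for the family. Among the 76 genes themselves, the deviation in knockout replicate 3 had a Pearson r of -0.13 with log2 length. Erythroid markers summed to 5176, 5205, 6251 and 4452 CPM in knockout replicates 1 to 4, against 4380, 2594 and 4540 CPM in control replicates 1 to 3. They were also highest in knockout replicate 3 and lowest in control replicate 2. In knockout replicate 4, where the family was at -0.12, they lay within the controls' range. The part of transcript length and of erythroid cells in the family's level was not tested.

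**Figure D4:**
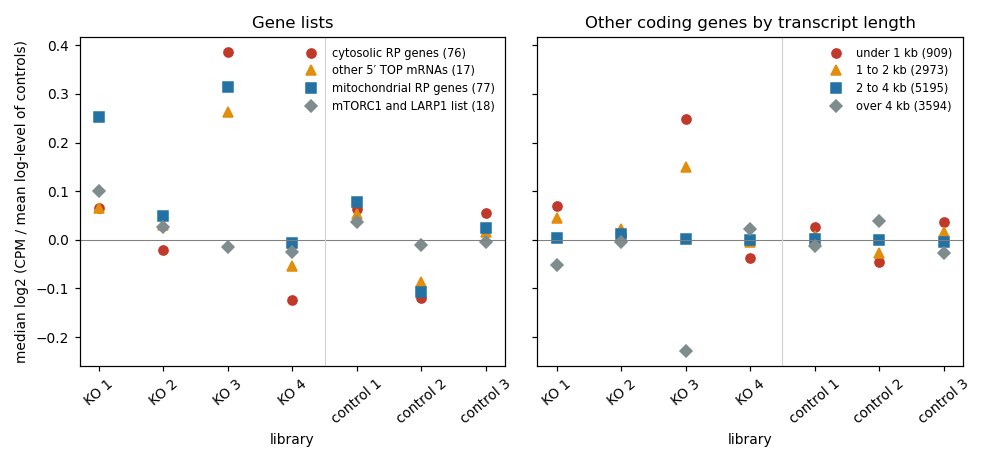
Median log2 level against the mean log2 level of the controls, by library, for 4 gene lists (left panel) and for other coding genes by transcript length (right panel), with gene numbers in brackets and knockouts left of controls. In knockout replicate 3 the cytosolic ribosomal protein genes are at 0.39 and the mTORC1 and LARP1 list at -0.01, and length classes fall in order between 0.25 under 1 kb and -0.23 over 4 kb.

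Rps23, which encodes a protein of the decoding centre, departed most from the rest of the family. It had 930, 875, 1224 and 829 CPM in knockout replicates 1 to 4, against 1115, 960 and 1175 CPM in control replicates 1 to 3. The groups overlapped through knockout replicate 3, the highest library (log2 fold change -0.17, SE 0.14, adjusted p = 0.717 by edgeR). As a share of the summed counts of the 76 genes it was 1.22%, 1.21%, 1.29% and 1.24% in knockout replicates 1 to 4, against 1.46%, 1.42% and 1.54% in control replicates 1 to 3. Here every knockout library lay below every control. The mean share was 1.24 ± 0.04% in knockout (SD, n = 4) and 1.48 ± 0.06% in control libraries (SD, n = 3), a change of -16.0% (exact two-sided permutation p = 0.0286, the smallest that 4 libraries against 3 can give).

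Scaled to the ribosomal protein counts in the fit of all genes, the log2 fold change of Rps23 was -0.25 (SE 0.08, unadjusted p = 0.0092, adjusted p = 0.385 by edgeR). It did not pass, nor did any other of the 76, where 0.525% of all genes did. Leaving out 1 library at a time gave log2 fold changes of -0.28 to -0.22 and adjusted p-values of 0.146 to 1.0 by edgeR. Rps23 has 4 exons and is the only one of the 76 on chromosome 13, which also carries Brd9. No exon of another coding gene or of the long noncoding classes compared overlaps it, and pseudogenes and small RNA genes were not compared.

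Shares of the family's counts did not overlap between groups for 11 of 76 genes (14.5%), Rps23 included, against 7.03% of all tested genes on the same scale. That scale divides by the family's own counts, which removes the variation its genes share and adds it to every other gene. The percentages are therefore not a like comparison, and in CPM the groups did not overlap for 11.2% of all genes. Among the 11 genes, the changes of those other than Rps23 were smaller. Rpl8, which lies near the peptidyl transferase centre, took 2.30%, 2.27%, 2.25% and 2.20% in knockout replicates 1 to 4, against 2.11%, 2.14% and 2.11% in control replicates 1 to 3, a change of 6.30%. Rpl21 took 0.414%, 0.414%, 0.441% and 0.411% in knockout replicates 1 to 4, against 0.393%, 0.393% and 0.378% in control replicates 1 to 3, a change of 8.29%. For both, all knockout libraries were above all controls, and knockout replicate 3 was the highest for Rpl21 but not for Rpl8. Rpl29, a large subunit protein that mice can live without, took 0.797%, 0.792%, 0.83% and 0.786% in knockout replicates 1 to 4, against 0.771%, 0.749% and 0.746% in control replicates 1 to 3. Its change was 6.03%, and those of Rps3, Rpl7 and Rplp0, also higher, were 3.90%, 2.19% and 1.26%.

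Rps19, the gene most often mutated in Diamond-Blackfan anaemia, was on the lower side. It took 0.917%, 0.919%, 0.961% and 0.905% in knockout replicates 1 to 4, against 0.988%, 0.984% and 1.0% in control replicates 1 to 3, a change of -6.57% (exact two-sided permutation p = 0.0571). Rpl23 and Rpl32 changed by -3.38% and -3.16%. None of the 11 passed in the fit scaled to the ribosomal protein counts. Rpl27 showed a different pattern, with 0.955% in knockout replicate 1 alone, against 0.778%, 0.777% and 0.827% in knockout replicates 2 to 4 and 0.772%, 0.781% and 0.792% in control replicates 1 to 3.

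**Figure D5:**
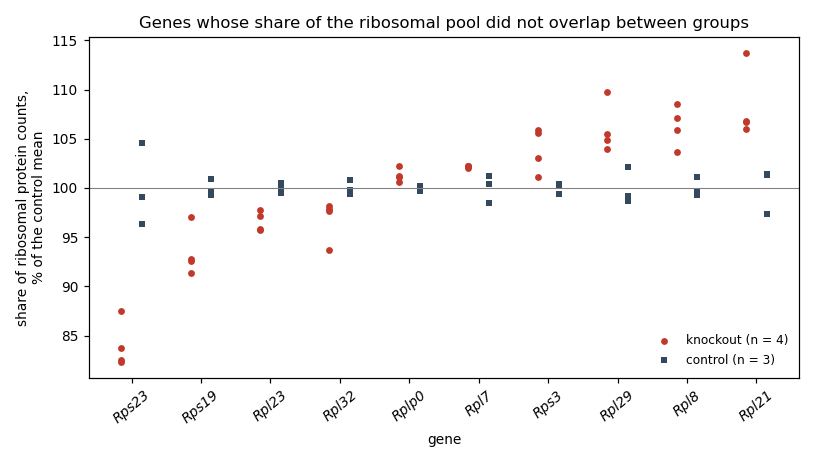
Share of the summed ribosomal protein counts taken by 10 of the 11 genes whose groups did not overlap, as a percentage of each gene's control mean, with knockout libraries (red circles, n = 4) left of control libraries (blue squares, n = 3). Rps23 averages -16.0% against controls and the other genes shown change by between -6.57% and 8.29%.

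The anaemia genes had fold changes close to those of the whole family. Of 23 genes mutated in Diamond-Blackfan anaemia or lost in the 5q- syndrome in people, 0 were called, where 0.559% of all tested genes were. Of the 23, 21 were higher, and the median log2 fold change was 0.07, beside 0.08 for all 76. Without knockout replicate 3 the median was -0.04, with 6 of 23 higher. In CPM, Rps19 had 700, 662, 912 and 608 in knockout replicates 1 to 4, against 753, 664 and 761 in control replicates 1 to 3, with a log2 fold change of -0.01. Rps14 had 1090, 941, 1307 and 845 CPM in knockout replicates 1 to 4, against 942, 842 and 1000 CPM in control replicates 1 to 3, with 0.17. For both genes the groups overlapped and knockout replicate 3 was highest.

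Rpl5 and Rpl11 bind the 5S ribosomal RNA and, unassembled, hold back the p53 inhibitor Mdm2. Rpl5 had 1351, 1292, 1717 and 1225 CPM in knockout replicates 1 to 4, against 1384, 1230 and 1379 CPM in control replicates 1 to 3. Rpl11 had 1083, 992, 1277 and 941 CPM in knockout replicates 1 to 4, against 1045, 909 and 1052 CPM in control replicates 1 to 3. Their log2 fold changes were 0.07 (SE 0.13) and 0.10 (SE 0.12), with overlapping groups. Rps26, which lies at the mRNA exit, had 860, 849, 1077 and 759 CPM in knockout replicates 1 to 4, against 863, 742 and 866 CPM in control replicates 1 to 3, with a log2 fold change of 0.11.

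Besides Rps23 and Rps14, the genes with the smallest unadjusted p included Rpl21, Rpl27, Rpl8, Rpl29, Rpl3, Rpl30, Rpl24 and Rps3. Their log2 fold changes were 0.13 to 0.20, with adjusted p-values of 0.646 to 0.748 by edgeR. Rpl21 had 316, 299, 419 and 276 CPM in knockout replicates 1 to 4, against 300, 265 and 288 CPM in control replicates 1 to 3. Rpl3, which reaches towards the peptidyl transferase centre, had 2080, 1988, 2456 and 1816 CPM in knockout replicates 1 to 4, against 1931, 1807 and 1973 CPM in control replicates 1 to 3. In both, knockout replicate 3 was highest and knockout replicate 4 lay within the controls' range. Without knockout replicate 3 the log2 fold changes of these 8 genes were 0.02 to 0.10. The lowest in summed count, Rpl39 and Rps28, had log2 fold changes of 0.10 and 0.04, and Rps20, Rpl37 and Rps16 of 0.04, 0.05 and 0.01.

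Subsets of the family had medians close to each other. The median log2 fold change was 0.09 over the large subunit, with 45 of 46 genes higher, and 0.07 over the small subunit, with 27 of 30 higher. Small nucleolar RNAs, which guide modification of ribosomal RNA, lay inside 29 of the 76 genes (38.2%), against 1.35% of 12671 other tested coding genes. The 29 hosts had a median of 0.07 and the 47 others of 0.08. The X-linked genes Rpl10, Rpl36a, Rpl39 and Rps4x had a median of 0.06. The 48 genes with a pyrimidine run had 0.07 and the 8 without it 0.09. All these medians take the 7 libraries together and share the high knockout replicate 3.

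Ribosomal proteins outside the symbol rule had small fold changes as well. Of 13 such genes 11 were tested, 9 were higher and 0 were called, where 0.559% of all tested genes were. Their median log2 fold change was 0.08. Rps27l, a paralog of Rps27 known as a p53 target, had 165, 132, 166 and 124 CPM in knockout replicates 1 to 4, against 137, 109 and 130 CPM in control replicates 1 to 3. Its groups overlapped (log2 fold change 0.23, SE 0.13, adjusted p = 0.580 by edgeR). Rpl36al had 288, 235, 299 and 229 CPM in knockout replicates 1 to 4, against 244, 219 and 243 CPM in control replicates 1 to 3. Rpl39l, a paralog with high expression in testis, was near the detection limit, at 0.710 to 1.66 CPM in knockout and 0.277 to 0.966 CPM in control libraries.

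Other mRNAs with a TOP motif, chiefly translation factors, had a median log2 fold change of 0.07 over 17 genes, with 14 higher. Of the 17, 0 were called, where 0.559% of all tested genes were. Without knockout replicate 3 the median was 0.01, with 9 of 17 higher. Eef1d, a subunit of the exchange factor of elongation factor 1, had 402, 348, 403 and 327 CPM in knockout replicates 1 to 4, against 328, 305 and 315 CPM in control replicates 1 to 3. Only knockout replicate 4 fell within the controls (log2 fold change 0.23, SE 0.10, adjusted p = 0.430 by edgeR). Npm1, a nucleolar chaperone, averaged 2663 ± 413 CPM in knockout (SD, n = 4) and 2304 ± 294 CPM in control libraries (SD, n = 3). Nap1l1, a histone chaperone, averaged 795 ± 79.7 CPM in knockout and 711 ± 36.1 CPM in control libraries. In knockout replicate 3 this list had a median of 0.26 against the controls, beside 0.39 for the ribosomal protein genes.

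Regulators of the TOP mRNAs were not high in knockout replicate 3. Levels in that library differed by transcript length, with medians of 0.25 for other coding genes under 1 kb and -0.23 over 4 kb. This list was not matched to the family by length. The 18 genes of mTORC1, LARP1 and their partners had a median of -0.01 in knockout replicate 3 and of 0.10 in knockout replicate 1. Their median log2 fold change was 0.02, with 12 higher and 0 called, where 0.559% of all tested genes were called. Myc, which drives ribosome production, had 165, 165, 163 and 169 CPM in knockout replicates 1 to 4, against 186, 185 and 175 CPM in control replicates 1 to 3. All knockout libraries lay below all controls, and the test was not passed (log2 fold change -0.14, SE 0.06, adjusted p = 0.495 by edgeR). The groups did not overlap for 2 of the 18 genes, against 11.2% of all genes. Rptor, the scaffold of mTORC1, had 69.9, 69.1, 57.6 and 70.5 CPM in knockout replicates 1 to 4, against 69.9, 77.1 and 74.3 CPM in control replicates 1 to 3. Akt1s1, an inhibitor of mTORC1, averaged 57.6 ± 5.11 CPM in knockout and 52.5 ± 1.84 CPM in control libraries.

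Chaperones that escort individual ribosomal proteins had a median log2 fold change of 0.11, with 10 of 11 higher. Of the 11, 0 were called, where 0.559% of all tested genes were. An unadjusted p under 0.05 was found for 2, where 10.9% of all genes had one. Ltv1, a factor of small subunit assembly, had 125, 109, 111 and 98.7 CPM in knockout replicates 1 to 4, against 95.1, 86.4 and 93.6 CPM in control replicates 1 to 3. All knockout libraries were higher than all controls, the only gene of the 11 whose groups did not overlap, against 11.2% of all genes (log2 fold change 0.27, SE 0.09, adjusted p = 0.284 by edgeR). Grwd1, which escorts Rpl3, averaged 78.5 ± 8.21 CPM in knockout and 66.9 ± 4.89 CPM in control libraries. Bccip, which escorts Rpl23, averaged 108 ± 13.2 CPM in knockout and 92.1 ± 7.05 CPM in control libraries. Without knockout replicate 3 the median of the list was 0.03.

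Mitochondrial ribosomal proteins, which serve the separate ribosome of that organelle, were the related list with the highest median log2 fold change, 0.15. Of 77 genes 76 were higher and 0 were called, where 0.559% of all tested genes were. The number with an unadjusted p under 0.05 was 11, where 10.9% of all genes had one. Without knockout replicate 3 that number was 2, and the median was 0.09 with 66 of 77 higher, where the cytosolic family had -0.03 with 25 of 76 higher. Against the controls their median was 0.25, 0.05, 0.31 and -0.01 in knockout replicates 1 to 4, and 0.08, -0.11 and 0.02 in control replicates 1 to 3. Mrpl17 had 75.6, 63.3, 69.0 and 62.8 CPM in knockout replicates 1 to 4, against 57.3, 55.8 and 56.4 CPM in control replicates 1 to 3. The groups did not overlap for 5 of the 77 genes, among them Mrpl17, Mrpl45 and Mrpl36, against 11.2% of all genes. These 3 genes, the list's smallest p, had log2 fold changes of 0.26, 0.29 and 0.30 and adjusted p-values of 0.297, 0.326 and 0.346 by edgeR.

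Some counts could be shared between rows. Exons of another coding or long noncoding gene overlap 20 of the 76 genes, and overlaps with pseudogenes and small RNA genes were not searched. Of the 20, 16 had the overlap on the opposite strand only, among them Rps2, Rpl5 and Rps28. The other 4, with an overlap on the same strand, were Rpl13a, Rpl19, Rpl24 and Rps10. The library kit keeps strand, and whether counting used it was not stated. Of the 12 rows named as pseudogenes, Rpl14-ps1 had 44828 counts, 32.2% of those of Rpl14, and the rows of Rpl17-ps10 and Rpl34-ps1 had 10.9% and 10.2% of their parent genes. The treatment of reads that match several places was not stated, so the levels of these genes are uncertain.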

How the data were processed

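Gene counts were deposited by the authors for 7 libraries of polyA RNA (stranded kit, per the labels' protocols). HISAT2, featureCounts, DESeq2 and the build mm10 are named in the submitters' processing notes, without versions or settings. A second deposited table holds, per the file headers, counts divided by size factors (a signal), log2 fold changes, a Wald score and p-values from DESeq2. Counts were tested with edgeR 4.0.16 in R 4.3.3 (filterByExpr, TMM, quasi-likelihood F test, Benjamini-Hochberg over 14679 genes), and the script was checked on simulated data. CPM are on TMM-scaled library sizes, with a prior count of 2 on the log2 scale. The other fits were DESeq2 1.42.0, limma-voom (limma 3.58.1), other scalings and filters, a replicate block and leaving out each library. Scaling to the ribosomal protein counts was chosen after seeing the data. Transcript lengths came from the shortest basic coding transcript of the best APPRIS rank in GENCODE (GRCm38), and 92.8% of tested genes had one. Genes named were those with the 12 smallest p, the 5 highest and 5 lowest per kb, the 2 nearest the count limit, 5 disease genes, Brd9 and the 3 smallest p of each related list; others were named after their values were seen. Members and lists were chosen with earlier results of these data known. Some genes are not reported here by name.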

Additional observations from a re-analysis of the deposited data

Results flagged for a closer look

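Of 69 groups of 4 knockout values checked for a library far from the other 3 (Dixon's test), 2 stood out, fewer than the 1 in 20 that chance gives. Rpl21 took 0.441% of the ribosomal protein counts in knockout replicate 3, against 0.411% to 0.414% in the other knockouts. Rptor had 57.6 CPM in knockout replicate 3, against 69.1 to 70.5 CPM in the other knockouts. For both the library was knockout replicate 3, the one in which all 76 ribosomal protein genes were highest.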

How the results depend on the processing

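None of the 76 ribosomal protein genes was called under any alternative run. Brd9 was called under all of them, with log2 fold changes of -1.60 to -1.42. Genes called over the whole table numbered 82, against 228 with no filter, 393 by DESeq2, and 20 to 120 when 1 library was left out. The cause was not tested. The family's median was 0.07 by limma-voom, 0.06 with total counts, and -0.03 to 0.14 leaving out 1 library. The difference in the family's share of counts ran between -0.17 and 0.655 percentage points when 1 library was left out. Rps16 turned to -0.0052 with total counts. Scaled to the ribosomal protein counts, 40 of the 76 genes were below 0, and named genes that turned sign had log2 fold changes of -0.038 for Rps20, -0.040 for Rpl37, -0.072 for Rps16, -0.045 for Rps28 and -0.014 for Rpl5, as that scaling centres the family near 0. Leaving out 1 library gave -0.15 to 0.062 for Rps19, -0.012 to 0.17 for Rplp1, -0.014 to 0.17 for Rplp0, -0.0050 to 0.17 for Rps18, -0.055 to 0.095 for Rps20, -0.042 to 0.17 for Rpl39, -0.082 to 0.12 for Rpl37, -0.11 to 0.073 for Rps16, -0.087 to 0.13 for Rps28, -0.046 to 0.13 for Rpl5 and -0.0016 to 0.17 for Rps26, each lowest without knockout replicate 3. Whether the replicate numbers pair the libraries is not stated. Same-numbered deviations correlated at 0.17, -0.02 and -0.01, and 0.17 was the highest of all knockout and control pairs. With the replicate block 121 genes and 0 of the 76 were called, the family's median was 0.13 and Rps19 turned to 0.050. In that fit 4 of the 76 had an unadjusted p under 0.05 by edgeR. The share over all genes is not given for the block fit, so this number is not a result about the family. Knockout replicate 4 has no same-numbered control and adds nothing to that contrast, and the median without it was 0.14. Summed counts of the 76 genes were 43273 and more, so counting noise was small for them. Over the tested genes together, the variance between libraries of 1 group was 9.03 to 45.7 times that of sampling noise (chi-square per degree of freedom). It was not computed for the 76 genes alone.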
